A study of Mus musculus with 2 samples.

Results

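Peaks called in replicate 2 only are stretches of open chromatin that 1 of 2 DNase-seq libraries of embryonic mouse liver listed and the other did not. They were chosen by measured values: from the longer peak list of each library, on chromosomes 1 to 19, a replicate 2 peak was taken when its signal value was 0.8 or more and it shared no base with any replicate 1 peak. There were 1833 such peaks, which is 7.13% of the 25705 replicate 2 peaks of that value on these chromosomes and part of 36523 replicate 2 peaks in all. Since the choice used this contrast, nothing is read from that share. The other 23872 peaks, called shared peaks here, overlapped a replicate 1 peak. The same rule turned round gave 5989 peaks called in replicate 1 only, which is 18.9% of 31771, and these are given beside the replicate 2 only peaks in many of the comparisons.

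Both libraries were made from liver of embryos at 13.5 days, from mice of strain C57BL/6N,129 whose LCR was deleted and whose globin mutation was recorded as HET. Replicates 1 and 2 are different biosamples under 1 donor identifier and form 1 group, so the deletion and the mutation are common to all data here, and there is no unmutated control group. The labels do not spell out LCR, and sex was recorded as not collected. Not given in the sources used here were the extent of the deletion, the genotype of each embryo and the number of embryos in a sample. As a check of the tissue, peaks lay at promoters of 9 of 10 erythroid marker genes in replicate 2 and 10 of 10 in replicate 1, and of 2 of 7 hepatoblast markers in replicate 2 and 4 of 7 in replicate 1. For macrophage, megakaryocyte, lymphoid, endothelial and mesenchymal markers, the counts were equal in both libraries, at 1 of 5, 1 of 4, 2 of 5, 1 of 4 and 2 of 5 genes. Equal counts need not be the same genes. The megakaryocyte marker Itga2b had a replicate 2 peak across its start, and the replicate 1 peak nearest to it was 2470 bases away.

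DNase I cuts DNA that is not wrapped tightly in nucleosomes or covered by other proteins, and sequencing the cut ends marks promoters and enhancers as peaks. Within a peak a bound protein shields a few bases, which leaves a short gap in the cuts known as a footprint. At an active promoter the open stretch usually sits just before the transcription start, and the first nucleosomes of the gene body follow it, with a looser flank of cutting on either side. The fetal liver at this stage is a site of red cell formation, and its chromatin is that of erythroid precursors mixed with hepatoblasts and other cells.

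The sequences below were read from the GRCm38 reference (RefSeq, the mm10 build of the files), plus strand, 5′ to 3′, from peaks without bases in an exon of a protein-coding gene, and capitals mark bases in replicate 2 footprints. They show the kinds of place where the replicate 2 only peaks lay. The first is chr1:75124821-75125100, in an intron of Nhej1, one of the highest of these peaks. The next is chr6:128803001-128803200, inside the annotated gene Gm44511, the highest of these peaks away from any start. After it come chr14:51065081-51065260, which spans a threonine tRNA gene, and the central 300 bases of the peak nearest to Rela, chr19:5648851-5649150, the highest with no replicate 1 peak nearby. Erythroid genes follow with the central 300 bases of the Slc4a1 peak, chr11:102365331-102365630, with chr4:115059271-115059300 at Tal1, which held no footprint, and with chr4:62519241-62519303 at Alad. The last, chr8:20597441-20597660, is the highest of a run of peaks in repeated sequence next to Gm21119.
Nhej1 intron: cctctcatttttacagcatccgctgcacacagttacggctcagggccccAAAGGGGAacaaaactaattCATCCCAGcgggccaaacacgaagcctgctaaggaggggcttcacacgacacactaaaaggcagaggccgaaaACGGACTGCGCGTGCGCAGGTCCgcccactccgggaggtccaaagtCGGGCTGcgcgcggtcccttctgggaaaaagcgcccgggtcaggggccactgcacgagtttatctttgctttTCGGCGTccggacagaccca
Gm44511: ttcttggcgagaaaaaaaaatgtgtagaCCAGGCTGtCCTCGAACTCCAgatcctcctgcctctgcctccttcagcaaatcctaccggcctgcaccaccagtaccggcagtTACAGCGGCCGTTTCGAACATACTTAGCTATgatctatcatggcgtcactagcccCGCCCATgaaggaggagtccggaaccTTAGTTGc
Threonine tRNA gene: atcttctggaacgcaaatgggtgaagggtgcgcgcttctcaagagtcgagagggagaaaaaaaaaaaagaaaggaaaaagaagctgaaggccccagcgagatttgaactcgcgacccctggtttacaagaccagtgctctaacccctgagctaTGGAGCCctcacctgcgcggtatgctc
Nearest to Rela, centre: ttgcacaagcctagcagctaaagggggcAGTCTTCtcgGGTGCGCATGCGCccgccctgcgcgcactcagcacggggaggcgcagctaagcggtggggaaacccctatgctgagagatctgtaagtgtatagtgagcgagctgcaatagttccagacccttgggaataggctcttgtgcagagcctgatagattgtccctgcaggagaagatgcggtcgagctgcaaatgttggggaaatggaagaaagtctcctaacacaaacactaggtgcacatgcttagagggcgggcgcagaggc
Slc4a1, centre: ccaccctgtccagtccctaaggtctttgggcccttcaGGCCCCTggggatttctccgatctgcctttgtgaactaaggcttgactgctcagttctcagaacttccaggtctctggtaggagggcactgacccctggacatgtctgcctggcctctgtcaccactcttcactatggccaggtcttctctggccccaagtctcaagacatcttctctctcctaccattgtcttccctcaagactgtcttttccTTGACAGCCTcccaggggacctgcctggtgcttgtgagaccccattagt
Tal1: gactaagtagttattcctgattggtcaggt
Alad: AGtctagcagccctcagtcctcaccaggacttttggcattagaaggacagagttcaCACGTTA
Nearest to Gm21119: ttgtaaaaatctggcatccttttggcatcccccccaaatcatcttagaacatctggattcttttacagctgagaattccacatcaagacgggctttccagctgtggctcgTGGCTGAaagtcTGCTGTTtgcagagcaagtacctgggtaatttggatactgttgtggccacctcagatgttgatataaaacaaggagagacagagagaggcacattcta

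In these 8 sequences, a script looked for the letters of 13 motifs on both strands. GCATGCG, letters that the factor NRF1 is known to bind, stood inside the second capital block of the sequence nearest to Rela, with all 7 of its bases in that footprint. AGATAA, letters bound by GATA factors, occurred once in the Nhej1 sequence at bases 248 to 253 on the minus strand, outside the footprints. The Slc4a1 sequence began with CCACCC, letters bound by KLF factors, and the Tal1 sequence held CCAAT on its minus strand, both outside footprints. CAGCTG, an E-box, occurred at 2 places in the Gm21119 sequence. These are matches of letters, not shown binding.

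Most of the replicate 2 only peaks were weak, and most lay close to a peak of replicate 1. Their median value was 1.03, with the middle 50% between 0.887 and 1.33, while shared replicate 2 peaks had a median of 1.91. They were 180 bases long in the median, against 240 bases for shared peaks. The value is the authors' depth-normalised cleavage signal, and it came in whole multiples of a step of 0.0139 in replicate 2 and 0.0123 in replicate 1. By value, 853 lay between 0.8 and 1, 666 between 1 and 1.5, 241 between 1.5 and 3, and 73 at 3 or more. At the threshold itself, 66 of the peaks kept tied at the lowest value of 0.804, among them those nearest to Fzd7, Dcaf6 and Reep3. The highest value not kept was 0.790, 1 step lower, at which 69 peaks tied, among them 1 at Eloc and 2 nearest to Asb1. If a step is read as 1 count, which is an assumption, the 95% Poisson interval of 0.804 was 0.611 to 1.04, so the threshold cuts through values that counting error does not separate.

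The median gap to the nearest replicate 1 peak was 278 bases. Of the 1833 peaks, 70 touched a replicate 1 peak without sharing a base, 582 lay 1 to 150 bases away and 781 lay over 150 and up to 1000 bases away. A further 280 lay over 1000 and up to 10000 bases away and 120 lay over 10000 bases away. In all, 1433 (78.2%, 95% exact binomial interval 76.2 to 80.0) lay within 1000 bases, against 35.9% (34.7 to 37.1) of the replicate 1 only peaks, whose median gap to a replicate 2 peak was 2920 bases. The longer lists are unequal, with 47198 peaks in replicate 1 and 36523 in replicate 2. A replicate 2 only peak thus had more peaks of the other library that could lie near it. All such intervals here cover counting error only, and with 1 library on each side the difference was not tested. The share within 1000 bases was larger among stronger peaks: 70.8% of those from 0.8 to 1, 79.3% from 1 to 1.5, 94.6% from 1.5 to 3 and all 73 at 3 or more. The nearest replicate 1 peak had a median value of 3.19 in its own library.

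**Figure D1:**
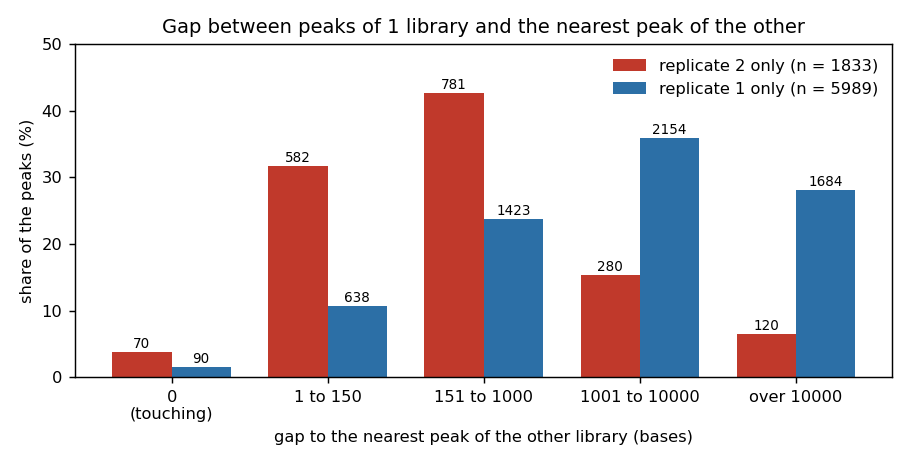
Share (%) of peaks called in replicate 2 only (red, n = 1833) and in replicate 1 only (blue, n = 5989) by the gap in bases to the nearest peak of the other library; the number above each bar is the count of peaks. The replicate 2 only peaks are most frequent at gaps over 150 and up to 1000 bases (781), the replicate 1 only peaks at gaps over 1000 and up to 10000 bases.

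Replicate 2 also called overlapping peaks of its own. Of the replicate 2 only peaks, 150 overlapped another peak of the same list, and 112 (6.11%) overlapped one that is itself shared with replicate 1. Among those of 3 or more this held for 23 of 73 (31.5%, 21.1 to 43.4), so a stretch that counts as called in replicate 2 only can lie under a longer replicate 2 peak that replicate 1 matched. Without the 112, the share within 1000 bases of a replicate 1 peak was 76.8%. A peak of the authors' shorter replicate 1 list overlapped 43 of the 1833.

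The highest of these peaks stood at promoters, next to replicate 1 peaks. The highest, at chr10:91181421-91181640, had a value of 8.65 and replicate 1 had a peak of 16.1 that began 20 bases away. It lay 106 bases from the start of a non-coding transcript of Tmpo, which encodes the nuclear lamina protein thymopoietin, and over the tryptophan tRNA gene n-TWcca2 of the RefSeq annotation (chr10:91181412-91181483, minus strand). A replicate 2 peak of 9.79 overlapped it, and replicate 1 listed its whole length of 220 bases at a false discovery rate (FDR) down to 3.03e-48. The second, at chr17:24169401-24169580, covered the start of Atp6v0c, a subunit of the proton pump of acidic organelles, with 8.0 in replicate 2, and a replicate 1 peak of 10.5 began at the next base. The third, in the intron of Nhej1, a DNA end-joining factor, had 7.08 and lay 100 bases from a non-coding Nhej1 transcript. It touched a replicate 1 peak of 6.49 on one side, and another of 14.2 began 20 bases from its other edge.

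Of the 10 highest, 8 were within 1000 bases of the start of a protein-coding transcript. Zfp335, a zinc finger gene, had a replicate 2 only peak of 6.85, and the nearest replicate 1 peak, 40 bases off, was 8.95. Arrdc2, of the arrestin family, had 6.52 beside a replicate 1 peak of 27.5, and Tmbim6, an inhibitor of cell death in the endoplasmic reticulum, had 6.5 between a touching replicate 1 peak of 3.23 on one side and another of 18.7 on the other. Cactin, a gene of the splicing machinery, had 6.27, and replicate 1 had 22.4 at 100 bases. Eef1a1, the translation elongation factor, had 6.13 across its start at chr9:78481561-78481780, touching a replicate 1 peak of 9.51. The start shared by Nek8 and Tlcd1 had 5.67 against 13.5 in replicate 1, and that shared by Fgd6 and Vezt had 5.60 against 16.1. In 8 of the 10 the nearest replicate 1 peak carried the larger number, though the sources used here do not say whether both libraries share 1 scale. All 10 held footprints of both libraries, 1 to 7 of replicate 2 and 1 to 5 of replicate 1.

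**Figure D2:**
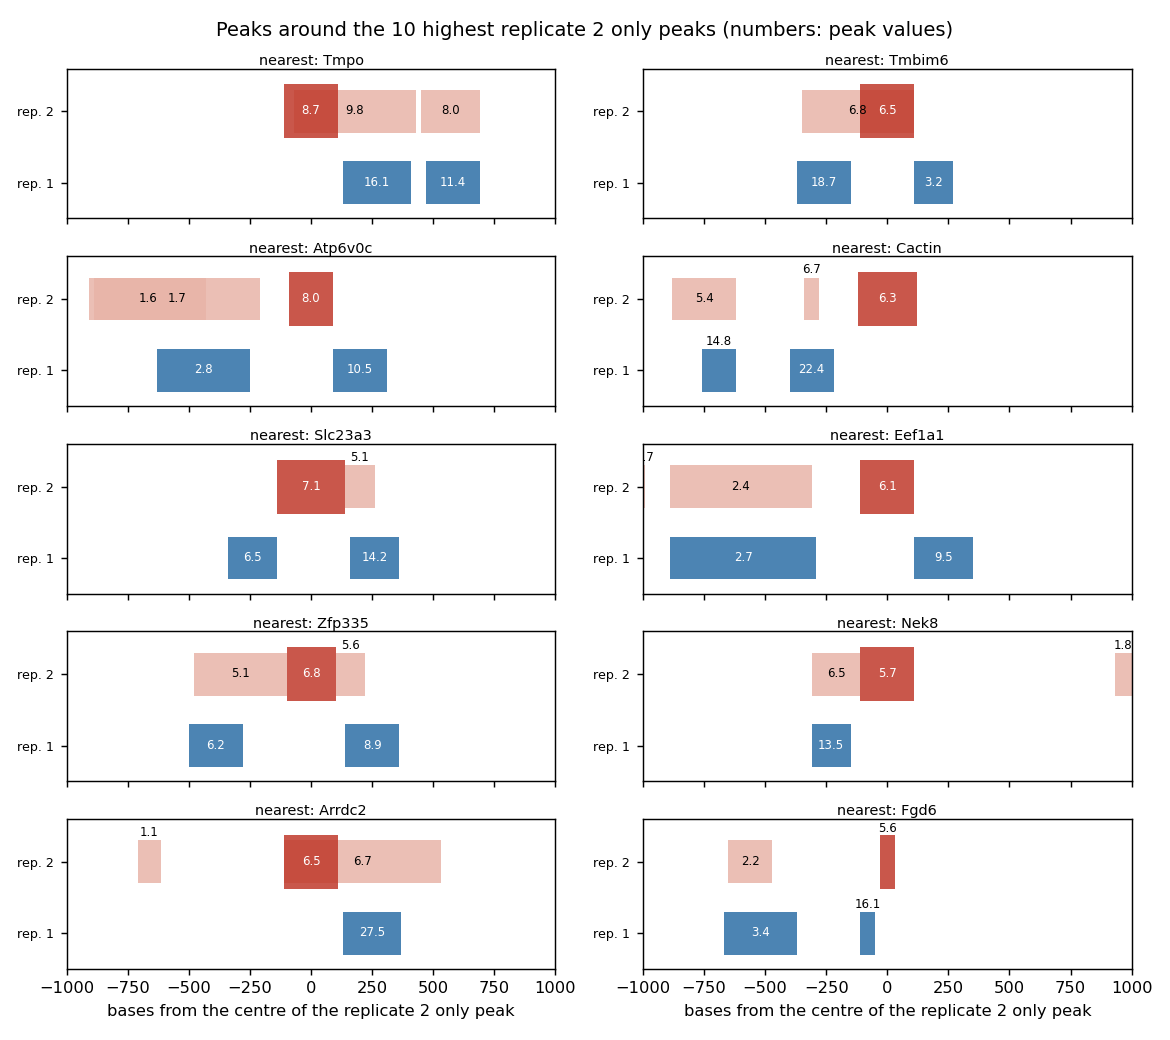
Peaks within 1000 bases of the 10 highest replicate 2 only peaks, drawn to scale from the centre of each (x axis, bases), with replicate 2 in the upper row and replicate 1 in the lower row of each panel, and the peak value printed at each box. Dark red boxes are the replicate 2 only peaks, pale red boxes other replicate 2 peaks and blue boxes replicate 1 peaks; each dark box has a blue box beside it, at most 100 bases away. The Nhej1 peak is titled by the nearest protein-coding start, that of Slc23a3.

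The next 5 at starts were alike. Raly, an RNA-binding protein gene that shares its start region with the agouti gene a, had 5.36, touching a replicate 1 peak of 17.8. Hnrnpc, which encodes another RNA-binding protein, had 5.09 and a replicate 1 peak of 24.7 lay 40 bases away. Tmem131 had 4.96 beside 7.5, Abhd11 had 4.92 beside 23.9, and the start of Fdxacb1 and 1110032A03Rik had 4.92 beside 10.5. The gaps were 20 bases for Tmem131, 100 bases for Abhd11 and 20 bases for Fdxacb1.

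Away from all annotated starts, the 5 highest replicate 2 only peaks with a replicate 2 footprint were lower. Each again had a replicate 1 peak within 60 bases. Starts of RefSeq tRNA genes did not count as annotated starts here. The Gm44511 peak, nearest to the start of the lectin receptor gene Klrb1c, had 4.33, with a replicate 1 peak of 8.61 at 20 bases. An intronic peak of Gucy2g, a guanylyl cyclase gene, at chr19:55218501-55218760 had 3.53, with 6.25 at 20 bases. The non-coding gene 4930578M01Rik held a peak of 2.65 at chr15:98993381-98993520, with 8.10 at 60 bases, and chr19:46500061-46500540, which lies 1161 bases before Trim8, had 2.55 with 10.4 at 20 bases. The fifth, with 2.48 and a replicate 1 peak of 9.89 at 60 bases, was the one over the threonine tRNA gene n-TTtgt3.

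These tRNA genes, which RNA polymerase III transcribes, were looked up after the highest peaks had been seen. Of 386 RefSeq tRNA genes on chromosomes 1 to 19, 4 lay under a replicate 2 only peak, 231 under a shared peak and 10 under a replicate 1 only peak. So 4 of 1833 replicate 2 only peaks (0.218%, 0.0595 to 0.558) covered one, against 0.963% (0.843 to 1.10) of shared and 0.167% (0.0801 to 0.307) of replicate 1 only peaks. The other 2 were the aspartate gene n-TDgtc3 beside Fcgr3, at 3.01, and the glycine gene n-TGgcc9, at 0.818. All 4 peaks held a replicate 2 footprint.

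Replicate 2 only peaks lay at gene starts in a share close to that of shared peaks, although they were weaker. Of the 1833, 1102 (60.1%, 57.8 to 62.4) were at most 1000 bases from a protein-coding start, against 59.95% (59.3 to 60.6) of shared peaks and 30.1% (28.9 to 31.3) of replicate 1 only peaks. In shared peaks that share depends on the value, so bands of like value were also set side by side. From 0.8 to 1, 48.9% of replicate 2 only peaks were at a start, against 33.0% of shared and 23.2% of replicate 1 only peaks. From 1 to 1.5 the shares were 62.3%, against 38.9% and 28.5%, from 1.5 to 3 they were 83.4%, against 58.2% and 40.6%, and at 3 or more they were 94.5%, against 88.7% and 81.9%. Replicate 2 only peaks that lay far from replicate 1 peaks did not share this: with a gap over 1000 bases, 64 of 400 (16.0%, 12.5 to 19.97) were at a start.

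**Figure D3:**
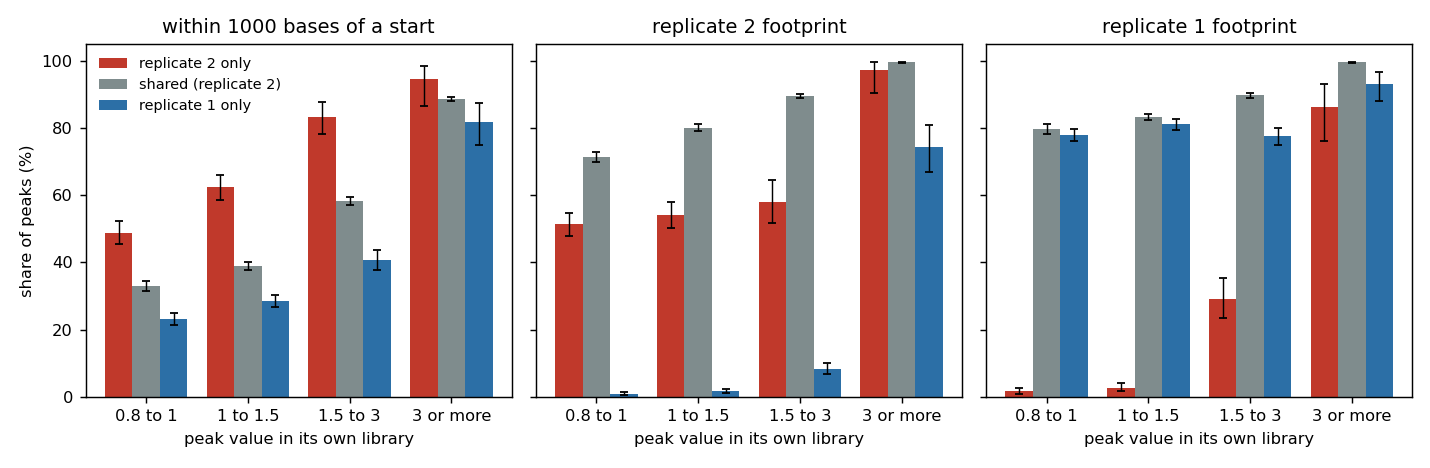
Share (%) of peaks within 1000 bases of a protein-coding start (left), with a replicate 2 footprint (middle) and with a replicate 1 footprint (right), by the value of the peak in its own library, for peaks called in replicate 2 only (red), shared replicate 2 peaks (grey) and peaks called in replicate 1 only (blue). Error bars are exact 95% binomial intervals and cover counting error; in every band the red bar on the left is the tallest, with overlapping intervals at 3 or more.

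At those starts, the replicate 2 only peaks sat to the side of the start, mostly in the gene. The choice bears on this, since these peaks share no base with a replicate 1 peak. Replicate 1 had a peak at the starts of 1062 of the 1107 genes concerned, while shared peaks overlap a replicate 1 peak by definition. The contrast with shared peaks is therefore a description and was not tested. The centre was downstream of the start in 71.7% (68.9 to 74.3) of the 1102, with a median position of +261 bases, against 46.4% (45.6 to 47.3) and a median of -7 bases for shared peaks (positive is into the gene). Centres 150 to 600 bases downstream made up 43.2% of the replicate 2 only peaks and 15.8% of shared peaks, and centres under 150 bases from the start made up 18.3% and 62.6%. The replicate 1 only peaks lay between, with 61.0% (58.7 to 63.3) downstream and 35.9% at 150 to 600 bases. The downstream share was 71.9%, 73.5% and 74.1% in the lower 3 value bands of the replicate 2 only peaks, against 61.9%, 62.9% and 56.0% in shared peaks. At 3 or more it was 52.2% (39.8 to 64.4) of 69, against 32.9% of shared peaks.

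**Figure D4:**
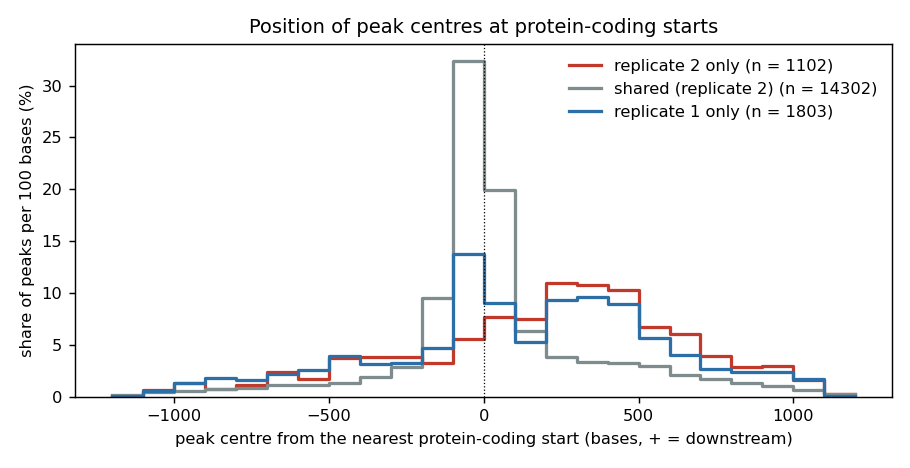
Distribution of peak centres around the nearest protein-coding start, in bases (positive values are downstream, in the gene), as the share (%) of peaks per 100 bases, for peaks called in replicate 2 only (red), shared replicate 2 peaks (grey) and peaks called in replicate 1 only (blue) that lie within 1000 bases of a start. Shared peaks crowd at the start itself, and the red line is highest between 200 and 500 bases downstream.

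Of the 1102, 1038 had a replicate 1 peak within 1000 bases. That replicate 1 peak had the higher value in 93.0% of cases, its centre was nearer to the start in 63.0%, and it covered the start in 42.3%. In the mirrored case, replicate 1 only peaks beside a replicate 2 peak, the 3 shares were 84.99%, 64.4% and 45.8%. Of 20698 protein-coding genes, 1107 had a replicate 2 only peak at a start, and 1032 of these also had a shared peak of 0.8 or more there. Replicate 1 had a peak of some value at the starts of 1062 of them, and at 45 it had none.

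Outside starts of any annotated gene, 268 peaks (14.6%) lay in a protein-coding gene but not in an exon, 71 (3.87%) in an exon and 267 (14.6%) outside protein-coding genes. Only 63 (3.44%, 2.65 to 4.38) lay over 10000 bases from every gene, against 5.04% of shared and 6.63% of replicate 1 only peaks.

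The FDR table of replicate 1 shows whether that library had cuts above its background at the same bases. It lists stretches, called runs here, with an FDR under 0.05. A replicate 1 run lay in 860 of the 1833 (46.9%, 44.6 to 49.2), in 34.9% at an FDR under 0.01 and in 29.3% under 0.001. Such runs covered 42.5% of the bases of the replicate 2 only peaks, and runs of replicate 2 covered 96.2%. Windows of equal length 2000 bases to either side held a replicate 1 run in 7.99% (7.13 to 8.92) of cases. In the mirrored case, 26.9% (25.8 to 28.0) of replicate 1 only peaks held a replicate 2 run. Since runs come from the same libraries as the peaks, these shares describe the selection and were not tested.

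The share with a run went with value and with nearness. It was 29.9% from 0.8 to 1, 48.6% from 1 to 1.5, 86.7% from 1.5 to 3 and 98.6% (72 of 73) at 3 or more. All 70 peaks that touched a replicate 1 peak had a run, as did 73.7% at 1 to 150 bases, 37.8% over 150 and up to 1000 bases, 16.1% over 1000 and up to 10000 bases, and 17.5% over 10000 bases. Among the 400 with a gap over 1000 bases, 66 had a run, and the lowest FDR in any of them was 0.0193, with a median of 0.0411. None of the 400 had a run under 0.01, which the choice of peaks far from replicate 1 peaks largely fixes.

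**Figure D5:**
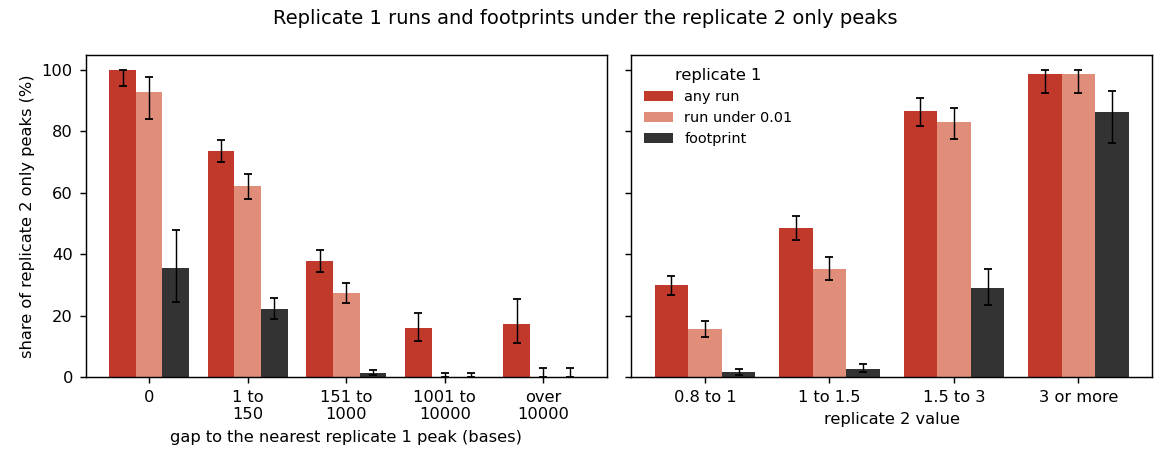
Share (%) of the replicate 2 only peaks that held a replicate 1 FDR run (red), a run under 0.01 (pale red) or a replicate 1 footprint (dark grey), by the gap to the nearest replicate 1 peak in bases (left) and by replicate 2 value (right). Error bars are exact 95% binomial intervals for counting error. The shares are lower at wider gaps and higher at higher values. Past 1000 bases no peak held a run under 0.01 or a replicate 1 footprint, which the choice by gap largely fixes.

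The single peak of 3 or more without a replicate 1 run was the one beside Fcgr3, a receptor for IgG antibodies. It measured 3.01 at chr1:171065281-171065480, held 4 replicate 2 footprints and lay 400 bases from a replicate 1 peak of 2.87. It spans the aspartate tRNA gene, and 82.2% of its words of 32 bases occur elsewhere in the genome, and the part of this repeated sequence in the result was not tested. The next without a run was the peak nearest to Rela, a subunit of the transcription factor NF-kappa-B, at chr19:5648821-5649180. It had a value of 2.26 and 2 footprints, no repeated words, and the nearest replicate 1 peak was 10800 bases away. Ppp1r9b, a regulator of protein phosphatase, had 2.00 in an exon, 640 bases from a replicate 1 peak of 6.58. Tmem238 had 1.90 across its start and replicate 1 had 1.97 at 179 bases, and a peak in Serinc3 had 1.89 with 39.8% repeated words.

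Footprints gave a like picture. Replicate 2 footprints lay in 55.1% (52.8 to 57.4) of the replicate 2 only peaks, against 88.0% of shared peaks, and at equal value the share was lower as well. It was 51.3% against 71.3% of shared peaks from 0.8 to 1, 54.2% against 80.1% from 1 to 1.5, and 58.1% against 89.5% from 1.5 to 3. At 3 or more it was 97.3%, against 99.6%. Per 1000 bases, the replicate 2 only peaks held 5.19 replicate 2 footprints and shared peaks held 11.3. By value, these rates were nearest from 0.8 to 1, at 5.23 against 5.83. They were 4.48 against 7.10 from 1 to 1.5, 4.52 against 9.49 from 1.5 to 3, and 12.7 against 17.1 at 3 or more. In the mirrored case, replicate 1 footprints lay in 79.5% (78.5 to 80.6) of replicate 1 only peaks, so these held a footprint of their own library more often than the replicate 2 only peaks did. Replicate 1 footprints lay in 9.0% (7.73 to 10.4) of the replicate 2 only peaks, which was 1.64% from 0.8 to 1 and 86.3% (76.2 to 93.2) at 3 or more.

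Of the 400 peaks over 1000 bases from any replicate 1 peak, 295 (73.8%) were also over 1000 bases from every annotated start, against 311 (21.7%) of the 1433 nearer ones. Their values were low, with a median of 0.943 and a maximum of 2.26, and 69.8% (65.0 to 74.2) of them held a replicate 2 footprint, against 51.0% (48.4 to 53.6) of the 1433. None held a replicate 1 footprint, which the choice of peaks far from that library's peaks largely fixes. The motif of CTCF, the factor that bounds chromatin loops, was found in the central 200 bases of 13.5% (10.3 to 17.2) of them. It was found in 0.907% (0.484 to 1.55) of the 1433 nearer to a replicate 1 peak, in 9.12% of shared peaks and in 9.97% of replicate 1 only peaks. AGATAA, the GATA letters, stood in 11.8% (8.76 to 15.3) of the 400 and in 4.95% (3.89 to 6.21) of the 1433. TGANTCA, the AP-1 letters, stood in 8.0% (5.54 to 11.1) of the 400 and 3.70% (2.78 to 4.81) of the 1433.

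Most of these contrasts were smaller once starts were set aside. Away from starts, AGATAA stood in 13.2% (9.57 to 17.6) of the 295 far peaks and 9.97% (6.87 to 13.8) of the 311 near ones, and TGANTCA in 8.47% (5.56 to 12.3) and 6.75% (4.23 to 10.1), with overlapping intervals for both. Replicate 2 footprints lay in 72.2% (66.7 to 77.2) of the 295 and 60.1% (54.5 to 65.6) of the 311. The CTCF motif was found in 16.3% (12.2 to 20.99) of the 295 and 2.25% (0.91 to 4.58) of the 311. In shared peaks away from starts it was found in 21.4% (20.5 to 22.3), and AGATAA stood in 14.7% (13.9 to 15.5). At starts, the replicate 2 only peaks held the CTCF motif in 0.907%, AGATAA in 3.81% and TGANTCA in 2.90%.

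Of the 400, the 64 at a start are the places where a promoter of replicate 2 had no replicate 1 peak near. The 8 highest, picked after their values were seen, were 1.68 at Trim7, 1.51 at Hdac7, 1.46 at Inpp5d, 1.40 at Cbarp, 1.33 at Hsd11b2, 1.32 at Shisa5, 1.25 at Slc26a1 and 1.23 at Tpra1. Replicate 1 had a run in 2 of these, at an FDR of 0.0365 for Trim7 and 0.0446 for Slc26a1. Hdac7 is a histone deacetylase of blood and vessel cells and Inpp5d a lipid phosphatase of blood cells. In the Trim7 peak 84.1% of the 32-base words recur elsewhere.

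Base composition and promoter letters were set beside those of the other peaks in the central 200 bases. GC content was 57.5% in the median, against 61.0% in shared and 55.0% in replicate 1 only peaks, and the ratio of observed to expected CpG was 0.517, against 0.673 and 0.313. GGGGCGG, the letters of SP factors, stood in 10.9% (9.47 to 12.4), against 24.8% of shared peaks and 23.2% of RefSeq promoters. The promoters are windows of 250 bases before to 50 after each start and so are longer. CCGGAAG, the ETS letters, stood in 2.56%, against 9.0% of shared peaks and 8.86% of promoters. CCAAT stood in 16.0%, against 23.6% and 37.4%, GCATGCG in 1.47%, against 3.71% and 3.58%, and TGACGTCA, the CRE letters, in 0.273%, against 1.72% and 1.79%. Each of these 5 sets of letters was less frequent in the replicate 2 only peaks than in all shared peaks, with intervals that did not overlap. Shared peaks of lower value, between 0.8 and 1.5, were much closer to the replicate 2 only peaks: GGGGCGG stood in 13.2% of them, CCGGAAG in 2.85%, CCAAT in 18.6%, GCATGCG in 1.74% and TGACGTCA in 0.555%. In replicate 1 only peaks the shares were 12.4%, 2.77%, 19.6%, 1.67% and 0.568%. For the ETS, NRF1 and CRE letters the intervals of all 3 sets overlapped. As given above, the sets differ in their shares at starts. Away from starts, GGGGCGG stood in 3.14% (1.90 to 4.85) of replicate 2 only peaks. In shared peaks between 0.8 and 1.5 away from starts it stood in 6.18% (5.53 to 6.89). The intervals for the ETS, CCAAT, NRF1 and CRE letters overlapped there. For CAGCTG the shares were 14.1% in replicate 2 only peaks and 13.1% in all shared peaks, with overlapping intervals. CCACCC stood in 25.5% (23.5 to 27.6), against 26.4% (25.8 to 26.9) of shared peaks, and TGTTTAC, the FOXA letters, in 2.62% (1.94 to 3.46), against 1.63% (1.47 to 1.8). AAGATGG, the YY1 letters, stood in 3.66%, against 4.63%, and TGTGGTT, the RUNX letters, in 2.24% (1.61 to 3.02), against 2.81%. In shared peaks between 0.8 and 1.5, TGTTTAC stood in 1.88% (1.61 to 2.18), AAGATGG in 3.83% and TGTGGTT in 3.78% (3.39 to 4.19). In replicate 1 only peaks the shares were 1.85% (1.53 to 2.23), 3.42% and 5.43% (4.87 to 6.03). Beside these 2 sets the intervals overlapped for TGTTTAC, while TGTGGTT was less frequent in the replicate 2 only peaks. Split by place, the intervals for TGTGGTT overlapped those of shared peaks. Away from starts it stood in 3.30% (2.03 to 5.05), against 4.59% (4.03 to 5.21) of shared peaks between 0.8 and 1.5. At starts it stood in 1.45% (0.832 to 2.35), against 1.81% (1.60 to 2.04) of shared peaks of 0.8 or more. All promoters were searched on both strands in the same way, and hold AGATAA in 11.2%, TGANTCA in 7.81% and the CTCF motif in 0.87%.

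Words of 32 bases that recur elsewhere in the genome made up over 50% of 45 peaks (2.45%, 1.8 to 3.27), against 1.16% of shared and 1.42% of replicate 1 only peaks. Among the 400 far from replicate 1 peaks this was 5.75% (3.68 to 8.50). The protein-coding gene nearest to the most replicate 2 only peaks, Gm21119, shows this: 9 peaks lay 17258 to 97038 bases before its start, with values of 0.804 to 1.62, and in all 9 over 50% of the words recurred. Replicate 1 had a run in 1 of the 9, and replicate 2 had footprints in 8.

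The other genes with many peaks held none in repeated sequence. Irf2bp2, a partner of the interferon regulatory factor IRF2, had 7, with values of 0.873 to 1.72, centred between -4561 and 2614 bases from its start. None of the 7 had a replicate 1 run, all 7 had a replicate 2 footprint, and 4 lay within 1000 bases of a replicate 1 peak. They are not 7 separate places: chr8:126592801-126593280 lies wholly inside chr8:126592421-126593460, so its footprints count in both. Arhgap23, a GTPase-activating gene, had 5, of 1.08 to 1.69, without a replicate 1 run, beside 14 shared peaks. Zmiz1, a transcriptional coregulator, was nearest to 5 of 0.804 to 1.08, at 56643 to 80763 bases from its starts. Smad7, an inhibitor of TGF-beta signalling, was nearest to 5 of 0.846 to 1.64, at 17564 to 133504 bases. The peaks of both were also without a run. In all, 1515 genes were nearest to some replicate 2 only peak, 1273 of them to 1 and 14 to 4 or more. Of the 1833 peaks, 432 (23.6%) had another within 5000 bases, in 191 groups of which the largest held 7.

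Genes of lists for liver, blood and common cell functions were looked up at starts. Of 221 list genes in the annotation, 16 had a replicate 2 only peak within 1000 bases of a start, 106 a shared peak and 36 a replicate 1 only peak. The 16 are 7.24% (4.19 to 11.5) of the list genes, close to the 5.35% of all 20698 protein-coding genes that had one, and the 106 are 47.96%, against 50.3% of all. Bulk tissue was used, so fewer cells of a type and less open chromatin per cell cannot be told apart. In the erythroid lists, 4 of 30 genes (13.3%, 3.76 to 30.7) had one, an interval that includes the share of all genes, and 26 had a shared peak. Slc4a1, the anion exchanger of the red cell membrane, had 2.07 centred at -201 bases from its start, 20 bases from a replicate 1 peak of 6.91, and replicate 1 runs covered all its 320 bases. Tal1, an erythroid transcription factor, had 1.43 in a stretch of 30 bases, 80 bases from a replicate 1 peak of 2.98. Bcl11a, known in human as a repressor of fetal globin, had 0.915, 981 bases into the gene and 140 bases from a replicate 1 peak of 1.8. Alad, an enzyme of heme synthesis, had 0.859 and 2 footprints, with a replicate 1 peak of 1.61 at 145 bases and no run.

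None of the 11 genes of the globin list had a replicate 2 only peak at a start. None had one within 50000 bases among peaks away from all annotated starts, called peaks at a distance here. Peaks within 50000 bases that lay at other annotated starts were not part of this count. Of all protein-coding genes, 5.35% had a replicate 2 only peak at a start, so with 11 genes nothing is read from its absence. The same genes had 5 shared peaks at starts and 9 at a distance, and 5 replicate 1 only peaks at a distance. Of 18 hepatoblast genes, Cebpa, a factor of liver and myeloid cells, had 0.832 beside a replicate 1 peak of 3.06. Of 10 megakaryocyte genes, Itga2b, a platelet integrin, had 0.832 in 51 bases across its start. Of the 16 genes it alone had no shared peak there, and replicate 1 had neither a run nor a peak within 2470 bases. The blood stem cell, macrophage, lymphoid, endothelial, mesenchymal, neuronal, muscle and developmental lists held 92 genes. Of these, 0 had a replicate 2 only peak at a start, beside 5.35% of all protein-coding genes. Only lists without such a peak are in this group, so the grouping fixed the 0 and nothing is read from it. A shared peak lay at a start of 18 of the 92 (19.6%), against 50.3% of all.

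The other 10 genes came from the immediate early, cell cycle, heat shock and housekeeping lists, among them Eef1a1, given above. Jun had 3.26 centred at -399 bases from its start with 8 replicate 2 and 5 replicate 1 footprints, and a replicate 1 peak of 8.39 lay 20 bases away. Dusp1 had 1.25 and Myc 1.11, at 761 and 329 bases into the gene, both with replicate 1 runs. Of 17 cell cycle genes, Ccnd3 had 1.15 and 0.956, Cdk4 had 0.984, Cdkn1a had 0.832 and Ccnd2 had 0.804, and a replicate 1 run lay in 1 of these 5 peaks, at Ccnd3. Actb had 1.43 beside a replicate 1 peak of 11.2 at 245 bases without a run, and Hsp90aa1 had 0.943 and 0.929, also without a run. Each gene of this paragraph also had a shared peak at a start.

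By chromosome, the share of replicate 2 peaks of 0.8 or more that were replicate 2 only ranged between 4.99% (3.91 to 6.26) on chromosome 1 and 8.76% (7.32 to 10.4) on chromosome 17. The share on chromosome 16 was 5.18% and that on chromosome 11 was 8.33%. Neighbours in this order have overlapping intervals.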

How the data were processed

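DNase-seq was run on 2 libraries of mouse embryonic liver, aligned to mm10 per the labels, and peaks, footprints and FDR were made per library, not pooled, per the deposited notes. Not given in the sources used here were the caller of the peaks, with its version, and the cut-off applied. The deposited peak value is a signal, the authors' depth-normalised cleavage, and it is a whole multiple of 1 step per library within 0.00482 of a step in replicate 2 and 0.00408 in replicate 1. The deposited FDR is an adjusted p-value (a q-value type), listed where it is under 0.05. The deposited footprint score is 0.01 in every row, so only footprint positions were used.

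The longer list of each library was used, and 1 shared base counted as overlap. Starts and genes came from GENCODE vM21, and sequences, tRNA genes and promoters from RefSeq GRCm38, whose chromosomes held every peak of the 21 chromosomes read. The nearest start is that of a protein-coding transcript. Motifs were matched as exact letters on both strands in the central 200 bases. The CTCF motif is a consensus with a few alternative letters. A word of 32 bases recurred where it stood at another place in the genome. Shares have exact (Clopper-Pearson) 95% binomial intervals, and since cut reads are not shown to be independent molecules they cover counting error only. No test was made, because each side is 1 library and the choice used the contrast. The value threshold, the distances and the lists were chosen with earlier results of these data known. The text names the 10 highest peaks, the next 5 at starts, the 5 highest with a footprint away from starts, the 5 highest without a replicate 1 run, the 5 genes nearest to the most peaks, every list gene with such a peak at a start, and 3 peaks on either side of the threshold, the first by chromosome name and position among those tied there. Genes with tRNA and the 8 peaks at starts far from a replicate 1 peak were added after their values were seen. Alternatives were the shorter list, other thresholds, gaps and distances, the sex chromosomes, all starts, FDR under 0.01, whole footprints, and the leaving out of overlapping or repeated peaks. The interval functions were tested on simulated data. Python 3.11.15, pandas 2.3.3, numpy 2.4.6, scipy 1.17.1, numba 0.67.0 and matplotlib 3.10.9 were used.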

Additional observations from a re-analysis of the deposited data

Results flagged for a closer look

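Chromosome X was not part of the choice of the 1833 peaks. By the same rule it held 10 replicate 2 peaks of 0.8 or more that overlap no replicate 1 peak, out of 496 replicate 2 peaks of that value, and the highest of the 10 had a value of 1.69. That is 2.02% (95% exact binomial interval 0.971 to 3.68), below the 7.13% of chromosomes 1 to 19 and below the lowest of them, chromosome 1, at 4.99%. The peaks are given here because they come from data outside the main measurement, and the difference was not tested. With chromosomes X and Y added, the total was 1843.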

How the results depend on the processing

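The number of peaks follows the cut-offs. It was 3195 at a value of 0.6 or more, 609 at 1.2 or more, 1073 with the shorter replicate 2 list, 1181 with no replicate 1 peak within 150 bases and 400 with none within 1000 bases. The share within 1000 bases of a start was 54.1% at 0.6, 78.7% at 1.2, 75.3% with the shorter list, and 53.8% and 16.0% at the wider gaps. It was 45.9% within 500 bases, 69.8% within 2500 bases and 66.9% when starts of all annotated genes counted. The share with a replicate 1 run was 36.7% at 0.6, 75.04% at 1.2, 76.4% with the shorter list, 30.6% and 16.5% at the wider gaps, 34.9% for runs under 0.01, and 44.2% without peaks that overlap a shared replicate 2 peak. The share with a replicate 2 footprint was 52.5% at 0.6, 59.4% at 1.2, 37.8% with the shorter list and 69.8% at a gap over 1000 bases. The share far from all genes was 4.95% at 0.6, 1.31% at 1.2, 8.0% at a gap over 1000 bases and 0.218% over 50000 bases from any gene. Within 1000 bases of a replicate 1 peak lay 72.1% at 0.6, 91.1% at 1.2 and 91.8% with the shorter list. The downstream share at starts was 57.8% at a gap over 1000 bases. In all, 32 values moved out of the 95% interval of the main share, or past 1.5 times the main count, and 28 did not. The causes were not tested. Leaving out peaks that overlap a shared replicate 2 peak or with over 50% repeated words, and the last 2 measures, were chosen after seeing the data.

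Leaving out a replicate gives no value, since both libraries define the peaks. No paired analysis was possible because the 2 libraries form 1 group. With 1 library on each side, no difference between libraries has a replicate check, and values near 0.8 lie within counting error of the threshold. The step as 1 count is an assumption. Peaks of 1 library that fall just beside a peak of the other count here as called in 1 library only, and the sources used here do not say how the edges of peaks were set.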
